A study of Homo sapiens with 18 samples.

Results

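The nuclear genes for the subunits of respiratory chain complexes I to IV were examined in EpCAM+ cells of Huh1 and Huh7, human hepatocellular carcinoma (HCC) lines. Members were the genes whose symbol starts with NDUFA, NDUFB, NDUFC, NDUFS, NDUFV, UQCR, COX4I, COX5, COX6, COX7 or COX8, together with SDHA, SDHB, SDHC and SDHD. Pseudogenes, noncoding genes and the NDUFAF assembly factors that share the first prefix were left out. The array held 66 such genes among 19720 named genes, with 84 probes. Of these, 37 genes belong to complex I, 4 to complex II, 8 to complex III and 17 to complex IV.

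Huh1 and Huh7 were each treated for 48 hours with disulfiram (DSF, 0.1 µM), a copper-binding inhibitor of aldehyde dehydrogenase, or with 5-fluorouracil (5-FU, 1 µM), which blocks thymidylate synthesis and enters RNA. EpCAM+ cells, the fraction described in the study as tumor-initiating, were then isolated by flow cytometry from these and from control cultures. Each of the 6 groups held 3 one-color arrays, 18 in all, and the methods describe independent experiments. The methods list copper chloride with DSF, and what the control cells received is not stated. Each group is a single established line, so that the comparisons concern these lines only. Fewer cells of a kind and less RNA per cell cannot be told apart in sorted bulk RNA.

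The respiratory chain moves electrons from NADH (complex I) and succinate (complex II) through ubiquinone and complex III to cytochrome c, and complex IV passes them to oxygen. Complexes I, III and IV pump protons, and ATP synthase, also called complex V, uses the gradient. Complex I consists of core subunits, among them those that carry the flavin and iron-sulfur centers, and of accessory subunits around them. Only nuclear genes are members here, so the core subunits counted below are a part of the core. Complex IV has isoforms of several small subunits, of which some are usually restricted to heart, skeletal muscle, lung or testis.

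Between 25401 and 30171 of 42405 probes per array were well above background, and no spot was saturated. The hepatocyte markers (ALB, AFP, APOB) and epithelial markers (EPCAM, KRT8, KRT18) were well above background on all 18 arrays. Of 11 markers of other tissues, all at low signal except CD14 and PECAM1, PTPRC, CD14 and PECAM1 (blood and endothelium) were above background on all 18 arrays, VWF on 17, the muscle genes MYH7, CKM and MB on 12, 5 and 0, and COL1A1, DCN, CD3E and COL1A2 on 3 to 11. The Huh1 arrays lay on a single slide except the third DSF array, and the Huh7 arrays on another slide except DSF arrays 2 and 3, which were on a slide of their own. The 75th percentile of an array stood higher against the spike-in probes on all 5-FU arrays (-3.29 to -2.85 on the log2 scale) than on all control and DSF arrays (-4.31 to -3.78). Values below are log2 signals minus the array's 75th percentile, and changes are differences of group means with the SE of the fit. They are therefore relative to the bulk of probes and not to an equal amount of spike-in RNA.

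Of the 66 genes, 65 could be tested and COX8C, a testis isoform, could not, and 62 were well above background on every array. A gene was called higher or lower at an adjusted p under 0.05 in the limma fit over all probes. Where several probes represent a gene, the brightest was used.

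The promoters of the members were read first, since genes of the respiratory chain are known targets of NRF1, YY1 and ETS family factors. RefSeq (GRCh38.p14) gave the 250 bases before and 50 after the gene start for 56 members. Both strands were searched for GCGCANGCG, letters bound by NRF1, for AAGATGGCG, letters bound by YY1, and for CCGGAAGT, letters bound by ETS factors. The first can match at nearly the same place on both strands, its first letters can be the last letters of the second, and a gene with several matches was counted once. GCGCANGCG occurred in 18 of 56 member promoters (32.1%) and in 12.5% of 15843 protein-coding genes. AAGATGGCG was found in 8 members (14.3%) and in 3.21% of all genes. CCGGAAGT was found in 8 members (14.3%) and in 6.97% of all genes. All 8 AAGATGGCG matches lay in the 50 bases after the gene start and on the strand of the gene. The stretches below show the match in capitals for members that return in the results. They are printed 5′ to 3′ on the strand where the letters read, which is given with the position.

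SDHA, GCGCANGCG, chr5:218291-218320, plus strand: ccggtgtggtGCGCAGGCGcagtctgcgca
UQCRFS1, GCGCANGCG, chr19:29213163-29213192, plus strand: tccaaccacgGCGCAGGCGcgaggaggcgc
NDUFA3, GCGCANGCG, chr19:54102772-54102801, plus strand: gtgctccaggGCGCACGCGcagccctggga
NDUFS7, GCGCANGCG, chr19:1383822-1383851, minus strand: gcggctcggaGCGCATGCGgaaaccggaac
NDUFS7, AAGATGGCG, chr19:1383914-1383943, plus strand: ggccgaggccAAGATGGCGgtgctgtcagg
NDUFA7, AAGATGGCG, chr19:8321342-8321371, minus strand: tcgcggacggAAGATGGCGtccgccacccg
NDUFS4, AAGATGGCG, chr5:53560650-53560679, plus strand: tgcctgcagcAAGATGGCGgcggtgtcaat
NDUFA6, AAGATGGCG, chr22:42090728-42090757, minus strand: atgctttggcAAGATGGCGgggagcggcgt
NDUFA13, CCGGAAGT, chr19:19516204-19516233, plus strand: tccgcccgggaCCGGAAGTgtgggatactg

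SDHA, a subunit gene of complex II, holds such letters at several places, and NDUFS7 holds letters of 2 kinds. These are matches of letters and not measured binding sites.

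After DSF in Huh1, subunit genes of all 4 complexes were mostly lower than in control cells. Of 65 genes, 35 were called lower and 2 higher, where 26.3% of all 15855 genes tested were called lower and 26.3% higher. The median change was -0.21 over the members and -0.02 over all genes. The median change was -0.21 for complex I, -0.22 for complex II, -0.20 for complex III and -0.18 for complex IV. On the arrays, the median difference of 60 common subunit genes from the control mean was -0.20 ± 0.04 (SD, n = 3) with DSF and -0.01 ± 0.04 (n = 3) in the controls, with no overlap. The number called lower was 23 without the second control array, 53 when arrays were scaled on their median and 4 when scaled on the spike-in probes. With scaling on the array median the median change was -0.38, and that of all probes -0.17. With scaling on the spike-in probes the median change was -0.07, and that of all probes 0.14.

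In complex I, NDUFC2, an accessory subunit of the membrane arm, had the largest fall among the called members. Its values were 6.09, 6.24 and 6.10 on the control arrays and 5.53, 5.48 and 5.56 on the DSF arrays. The change was -0.62 ± 0.06 (limma adjusted p = 3.42e-06), and a dimmer probe of the gene fell by 0.96 as well. NDUFA7, an accessory subunit of the peripheral arm, lay at 4.82, 4.90 and 4.89 in control cells and at 4.38, 4.36 and 4.38 with DSF, a change of -0.50 ± 0.09 (limma adjusted p = 0.000296). NDUFA3, an accessory subunit of the membrane arm, changed by -0.49 ± 0.08. In none of these 3 genes, named for their large falls, did the DSF arrays overlap the controls. Such separation was common, since 42 of 65 members and 35.4% of all genes were lower without overlap. Of the nuclear core subunits, 4 of 7 were called lower and 0 higher. Of the accessory subunits, 14 of 21 in the membrane arm were called lower. In the peripheral arm 3 of 9 were, with a median of -0.06.

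SDHA, SDHB and SDHC of complex II were called lower after DSF in Huh1. SDHA, the flavoprotein, changed by -0.23 ± 0.08, SDHB, the iron-sulfur subunit, by -0.20 ± 0.07, and the membrane anchor SDHC by -0.34 ± 0.05. The other anchor, SDHD, changed by -0.09 ± 0.05 and was not called. All 4 probes of SDHA and all 3 of SDHC were called lower. In complex III, UQCR10, a small subunit near cytochrome c1, lay at 6.20, 6.23 and 6.22 in controls and at 5.71, 5.68 and 5.72 with DSF. This was a change of -0.51 ± 0.05 (limma adjusted p = 1.92e-06), and 3 probes of the gene were called lower. NDUFA3, NDUFA7, NDUFC2 and UQCR10 were the 4 genes called lower in Huh1 under all 4 scalings (75th percentile, median, quantile and spike-in).

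In complex IV, 6 of the 10 common isoform genes measured were called lower after DSF in Huh1, among them COX4I1, the ubiquitous form of subunit 4 (-0.29 ± 0.05), and COX7B (-0.35 ± 0.07). A pair of genes went the other way. COX7A2L, a relative of COX7A that tethers complex III to complex IV in supercomplexes, lay at 4.25, 4.34 and 4.29 in controls and at 4.65, 4.52 and 4.64 with DSF. The rise was 0.31 ± 0.07 (limma adjusted p = 0.00183), and the second probe rose by 0.37. With median scaling the change of COX7A2L was 0.14 and was not called (limma adjusted p = 0.262). COX7A1, the form of heart and skeletal muscle, was not well above background on any Huh1 control array, at -6.25, -7.51 and -7.58, and was well above it on all 3 DSF arrays, at -4.16, -4.03 and -3.97. With control values raised to a floor, the dimmest probe above background on the array, the level was 6.79-fold higher with DSF. That floor is not a detection limit of this probe, so the fold is approximate. The limma adjusted p was 3.58e-05 for the measured difference. With normexp background correction the change was 0.85 (adjusted p = 9.43e-07). Of the muscle markers, MYH7 was above background on 3 control and 2 DSF arrays of Huh1, CKM on 0 and 1, and MB on none.

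After DSF in Huh7 fewer members were called and directions were mixed. Of 65 genes, 15 were called lower and 7 higher, where 24.1% of all genes were called lower and 29.2% higher. The median change was -0.07 over the members and 0.04 over all genes, so that the share called lower was near that of all genes and the share called higher was below it. Complex II had 0 of 4 genes called, with changes from -0.11 to 0.13 in the limma fit, although SDHD had an unadjusted p of 0.0241. Dimmer probes of SDHA (-0.31 and -0.29) and of SDHC (-0.40) were called lower there and a dimmer probe of SDHD (0.18) higher. Complex IV had 6 lower and 2 higher of 16. In the part of the comparison within a single slide, 1 DSF array stood against 3 controls, and 1 gene was called lower and 3 higher. That lone array has no spread of its own and is assumed to vary like the other groups, so that the within-slide p-values rest on the spread of those groups. With the slide as a fixed block, the Huh7 estimate rests on that same array, since DSF arrays 2 and 3 were alone on their slide.

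COX7B had the largest fall among the common members in Huh7, -0.43 ± 0.07 (limma adjusted p = 0.000199). UQCRC1, a core protein of complex III, changed by -0.41 ± 0.08, and NDUFA3 and NDUFA7 both by -0.36. Within the slide, COX7B was at -0.25 (limma adjusted p = 0.0314) and NDUFA7 at -0.39 (limma adjusted p = 0.0561). NDUFB9, an accessory subunit of the membrane arm, rose. Its values were 6.76, 6.75 and 6.75 on the control arrays and 7.15, 7.13 and 7.08 on the DSF arrays, a rise of 0.37 ± 0.05 (limma adjusted p = 8.03e-05). Within the slide the single DSF array of NDUFB9 stood 0.40 above the controls. It was lost with spike-in scaling, under which no member was called higher in Huh7 and the median of all probes was -0.09. COX4I2, a lung form of subunit 4, was called higher, 0 of 3 control and 3 of 3 DSF arrays being above background. Against the floor used for COX7A1 its level was 1.44-fold higher, but with normexp correction the change was -0.06, in the other direction.

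**Figure D1:**
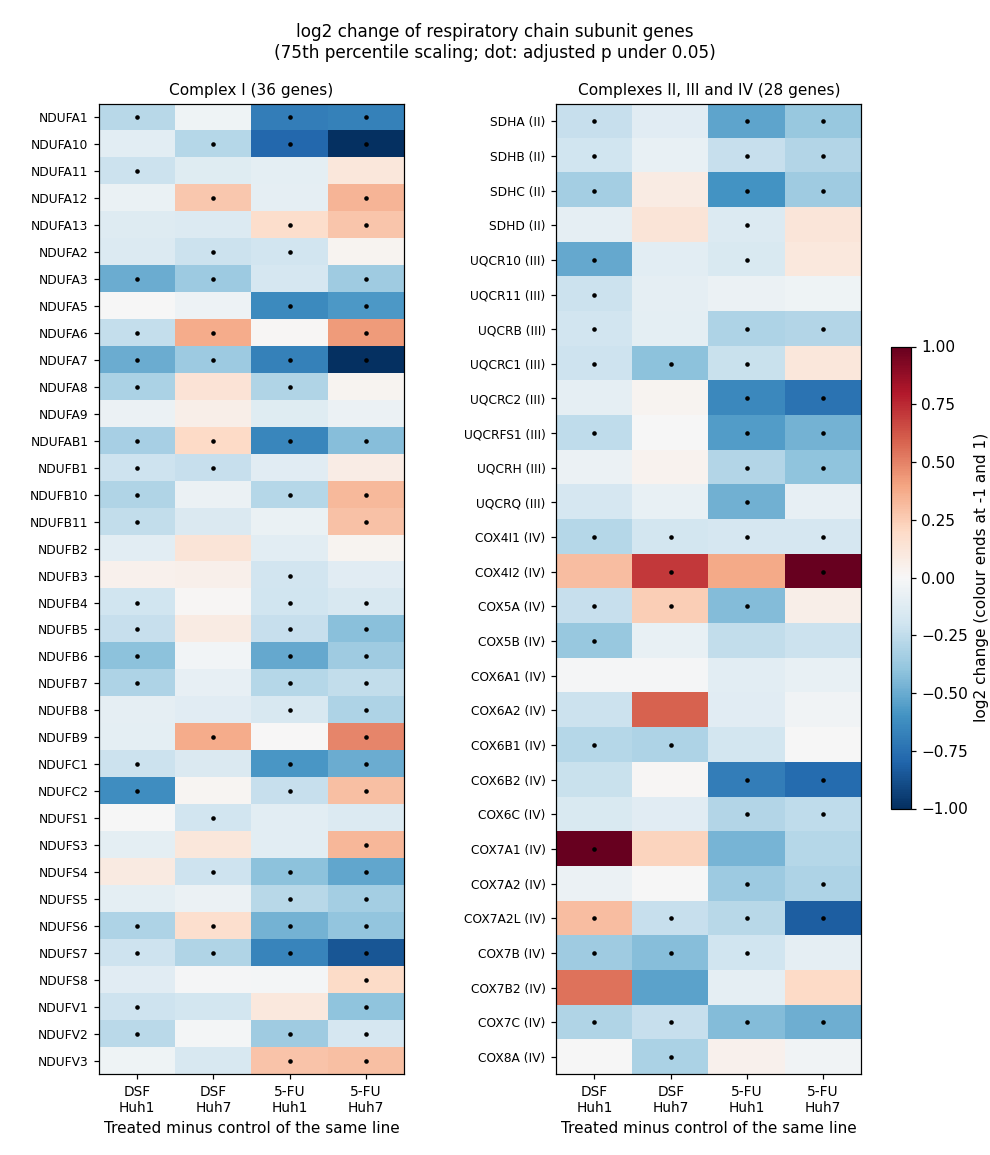
Rows are 64 of the 65 tested subunit genes, complex I on the left and complexes II, III and IV on the right, and columns are the changes after DSF and 5-FU in Huh1 and Huh7. Color gives the log2 change against control of the same line, ending at -1 and 1, and a dot marks an adjusted p under 0.05. The DSF column of Huh1 is blue in most rows, with COX7A1 and COX7A2L red and dotted, while NDUFB9 and NDUFA6 are red in both Huh7 columns.

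The lines were then compared gene by gene, in samples that share no controls. After DSF 9 of 65 members were called lower in both lines. These were NDUFA3, NDUFA7, NDUFB1, NDUFS7, UQCRC1, COX4I1, COX6B1, COX7B and COX7C. The arrays of all 9 were apart from their controls in both lines, a share not counted over all genes. The 9 were taken by their calls on these same arrays, so that the separation is no separate support. In the single comparisons 35.4% (Huh1) and 32.3% (Huh7) of all genes were lower without overlap. No member was called higher in both lines, and 5 were called in opposite directions. Over all genes tested 10.4% were called lower in both, 11.7% higher in both and 8.82% in opposite directions, so that 9 of 65 is a share near that of all genes. NDUFA3, NDUFA7, COX4I1, COX6B1, COX7B and COX7C were called lower in both lines with 75th percentile, quantile and median scaling alike. With the slide as a fixed block, the Huh7 calls of COX4I1 (-0.18), COX6B1 (-0.09) and COX7C (-0.21) were lost, and within the slide those of NDUFA3 (-0.35) and NDUFA7 (-0.39) as well, which left COX7B. The Huh7 values of the slide block and of the single slide both rest on the lone DSF array that shared a slide with the controls. In Huh1, the calls of NDUFB1, NDUFS7 and UQCRC1 were each lost when single arrays, control arrays among them, were left out.

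The genes with opposite calls were COX5A, COX7A2L, NDUFA6, NDUFAB1 and NDUFS6. NDUFA6, an accessory subunit of the peripheral arm, lay at 4.26, 4.29 and 4.21 in Huh1 controls and at 3.92, 4.02 and 4.11 with DSF. In Huh7 it lay at 4.55, 4.36 and 4.45 in controls and at 4.70, 4.88 and 4.91 with DSF. The change was -0.24 ± 0.08 in Huh1 and 0.37 ± 0.08 in Huh7, and the difference between the lines was 0.61 (limma adjusted p = 0.00111). For COX7A2L the difference was -0.54 (limma adjusted p = 0.000522), from a rise of 0.31 in Huh1 and a fall by 0.23 in Huh7, where the arrays were at 4.79, 4.80 and 4.87 in controls and at 4.72, 4.52 and 4.51 with DSF. Within the slide the single DSF array of Huh7 stood at -0.09 from the controls for COX7A2L and at 0.25 for NDUFA6, and neither was called. The other probe of COX7A2L moved in the same directions, by 0.37 and -0.34. Leaving out single Huh7 arrays ended the Huh7 call of each of COX5A, COX7A2L, NDUFAB1 and NDUFS6. In Huh1 the DSF call of NDUFA6 was lost in 5 of 6 fits that left out an array, and that of COX5A in 2 of 6. The test of the difference between the lines called 17 members higher (24.4% of all genes) and 4 lower (21.9%) in Huh7 than in Huh1, and with spike-in scaling 5 members in all.

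The 5-FU comparisons use the same control arrays as the DSF comparisons. More members were called after 5-FU in the scaling used here. In Huh1, 41 of 65 members were called lower and 2 higher, where 29.1% of all genes were lower and 25.9% higher, and the median change was -0.23 against -0.03 over all genes. In Huh7, 32 were called lower and 11 higher, where 31% of all genes were lower and 32.5% higher, with a median of -0.17 against -0.01. The common fall depended on the scaling. With quantile normalization 20 were lower and 11 higher in Huh1, with a median of -0.03, and 21 lower and 26 higher in Huh7, with a median of 0.09. With spike-in scaling, in which the median of all probes rose by 0.79 in Huh1 and 0.94 in Huh7, 52 and 58 members were called higher and 0 lower. The direction of the list as a whole thus differed between scalings. The 60 common members changed unequally, over a range from -0.79 to 0.29 in Huh1 and from -1.29 to 0.49 in Huh7.

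Members at the lower end of that range came from several complexes. NDUFA10, an accessory subunit of the membrane arm of complex I, lay at 4.28, 4.08 and 4.02 in Huh1 controls and at 3.40, 3.32 and 3.30 with 5-FU. In Huh7 it lay at 3.56, 3.57 and 3.58 in controls and at 2.31, 2.42 and 2.11 with 5-FU. The treated arrays were below all controls in both lines, at 0.58 and 0.41 of the control level. For Huh1 the change was -0.79 ± 0.09 (limma adjusted p = 6.73e-06), for Huh7 it was -1.29 ± 0.09 (limma adjusted p = 2.49e-08), and the second probe gave -0.80 and -1.33. The change was the larger in Huh7, by -0.50 (limma adjusted p = 0.0063). With quantile normalization NDUFA10 changed by -0.71 and -1.36, and with spike-in scaling by 0.04 and -0.30.

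NDUFA7 lay at 4.33, 4.12 and 4.12 with 5-FU in Huh1, below the controls given above. In Huh7 it was at 4.75, 4.78 and 4.80 in controls and at 3.55, 3.95 and 3.81 with 5-FU, or 0.50 of the control level. NDUFS7, a core subunit with an iron-sulfur center close to the ubiquinone site, changed by -0.66 ± 0.08 in Huh1 and -0.85 ± 0.08 in Huh7. Its arrays were at 3.85, 3.87 and 3.73 in Huh1 controls against 3.29, 3.08 and 3.10, and at 3.66, 3.67 and 3.69 in Huh7 controls against 2.80, 2.96 and 2.71. NDUFA1, an accessory subunit needed for assembly, changed by -0.70 and -0.67 in the 2 lines, NDUFA5 by -0.63 and -0.58 and NDUFAB1, the acyl carrier protein, by -0.65 and -0.43. NDUFA10 and these 5 genes were called lower in both lines with quantile and median scaling too, and with spike-in scaling no member was called lower.

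In complex II, the catalytic and anchor genes SDHA and SDHC fell in both lines. SDHA lay at 5.57, 5.57 and 5.61 in Huh1 controls and at 5.21, 4.95 and 5.00 with 5-FU, and at 5.20, 5.15 and 5.15 in Huh7 controls and at 4.69, 4.97 and 4.70 with 5-FU. Changes were -0.53 ± 0.08 (limma adjusted p = 9.35e-05) and -0.38 ± 0.08 (limma adjusted p = 0.00104), and all 4 probes of SDHA were called lower in both lines. SDHC changed by -0.60 ± 0.05 and -0.36 ± 0.05, and SDHB by -0.23 ± 0.07 and -0.29 ± 0.07. SDHD was called lower in Huh1 (-0.14 ± 0.05) and not called in Huh7 (0.12 ± 0.05), the difference between the lines being 0.26 (limma adjusted p = 0.0121).

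UQCRC2, a core protein of complex III, lay at 4.12, 3.91 and 3.92 in Huh1 controls and at 3.46, 3.28 and 3.29 with 5-FU. In Huh7 it lay at 4.25, 4.23 and 4.27 in controls and at 3.56, 3.52 and 3.45 with 5-FU. The changes of UQCRC2 were -0.64 ± 0.07 and -0.74 ± 0.07, whereas its partner core protein UQCRC1 changed by -0.22 ± 0.08 and 0.11 ± 0.08, the latter not called. UQCRFS1, the Rieske iron-sulfur protein, changed by -0.56 and -0.47. In complex IV, COX7A2L changed by -0.27 ± 0.07 in Huh1, from the control values above to 3.95, 4.06 and 4.04, and by -0.82 ± 0.07 in Huh7, to 3.92, 4.07 and 3.99. The second probe of COX7A2L gave -0.33 and -0.95, and the difference between the lines was -0.55 (limma adjusted p = 0.000507). The level of COX7A2L was higher in Huh7 than in Huh1 control cells, by 0.53 ± 0.07, and the ranges overlapped between the lines after 5-FU.

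**Figure D2:**
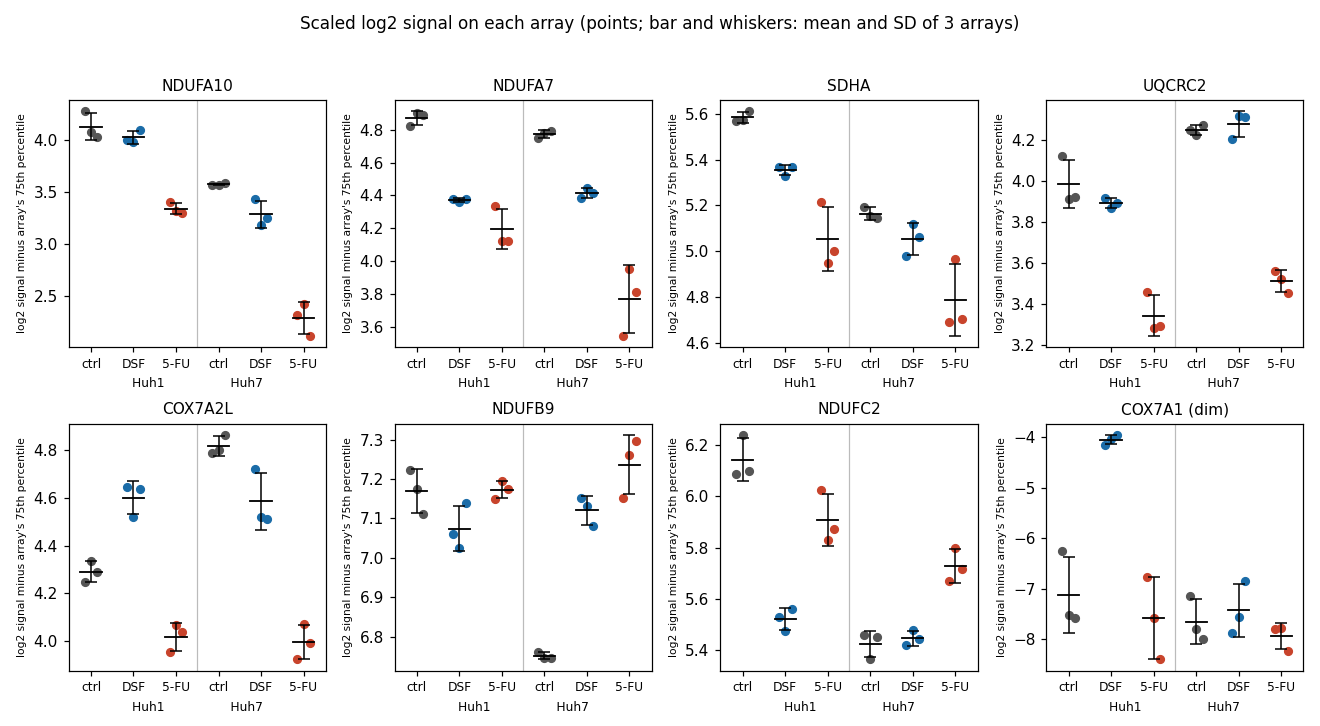
Points are the log2 signals minus the 75th percentile of the array for 8 genes on the 18 arrays, with the mean and SD of the 3 arrays of each group, and each panel has its own axis. NDUFA10, NDUFA7, SDHA and UQCRC2 are lowest with 5-FU in both lines, NDUFB9 is low in Huh7 control cells alone, and COX7A1 is raised in the DSF arrays of Huh1.

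NDUFA13 and NDUFV3 were the members called higher in both lines after 5-FU, among 16% of all genes higher in both. NDUFA13, an accessory subunit also known as GRIM19, changed by 0.18 ± 0.06 and 0.28 ± 0.06, and NDUFV3, a flavoprotein-arm subunit, by 0.29 ± 0.09 and 0.30 ± 0.09. The Huh1 call of NDUFA13 was lost on leaving out any of 5 arrays and that of NDUFV3 without the third control array, so that 0 to 2 members were called higher. With median scaling 0 members were called higher in Huh1. NDUFB9 did not change in a way that passed the test in Huh1 (0.00 ± 0.05), and in Huh7 it rose to 7.15, 7.26 and 7.30 from the control values above, by 0.49 ± 0.05 (limma adjusted p = 2.95e-06). The difference between the lines for NDUFB9 was 0.48 (limma adjusted p = 0.000237). After 5-FU the arrays of NDUFB9 were in the same range in the 2 lines, at 7.15 to 7.19 in Huh1 and 7.15 to 7.30 in Huh7. NDUFA6 rose in Huh7 by 0.43 ± 0.08, and NDUFA12 by 0.34 ± 0.06.

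Set against the median of the 60 common members on the same array, which removes any scaling by a constant, NDUFA10 stood lower after 5-FU by 0.45 in Huh1 and NDUFB9 higher by 0.35. In Huh7 the same differences were -1.12 for NDUFA10 and 0.65 for NDUFB9. NDUFA13 stood higher by 0.52 and 0.44, and NDUFV3 by 0.63 and 0.47. No 5-FU array overlapped a control array in these relative values. Such separation was common, since 13 of the 60 members stood apart below and 19 above in both lines. Before the median was subtracted, NDUFB9 had changed by 0.00 in Huh1, so that its relative rise there follows the lower median of the members.

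Across the lines, 30 of 65 members were called lower in both after 5-FU, where 17.3% of all genes were called so. The arrays of all 30 were apart from the controls in both lines, a share not counted over all genes. The 30 were taken by their calls on these same arrays, so that the separation is no separate support. In the single comparisons 33.6% (Huh1) and 35.3% (Huh7) of all genes were lower without overlap. The 2 members with opposite calls were NDUFB10 and NDUFC2, against 6.62% of all genes. With 75th percentile, quantile and median scaling all called, 16 members were lower in both lines. Among them were NDUFA1, NDUFA5, NDUFA7, NDUFA10, NDUFAB1, NDUFB6, NDUFS4, NDUFS6 and NDUFS7 of complex I, SDHA and SDHC of complex II, UQCRC2 and UQCRFS1 of complex III, and COX6B2 and COX7A2L of complex IV. Of the 14 with a promoter sequence, 6 held GCGCANGCG, 3 AAGATGGCG and 0 CCGGAAGT, against 12, 5 and 8 of the other 42. COX4I1 and COX7C, both called lower in the main scaling, were not among the 16. COX7C changed by -0.43 and -0.49 in the main scaling and by -0.07 and -0.02 with quantiles. The test of the 5-FU effect between the lines called 14 members higher in Huh7 (23.7% of all genes) and 4 lower (19.9%), and 7 in all with spike-in scaling.

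In the direct comparison of the drugs, 21 members were called higher with DSF than with 5-FU in Huh1 (30.4% of all genes) and 7 lower (25.3%). In Huh7, 31 were higher (34.5%) and 15 lower (30.7%). UQCRC2, NDUFA10, NDUFS7 and NDUFA5 were among those higher with DSF in both lines. Quantile normalization turned the balance, to 10 members above and 22 below in Huh1, against 15 above and 36 below in Huh7. Spike-in scaling left 1 above and 55 below in Huh1, against 0 and 62 in Huh7.

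The control cells of the lines differed in many members, 16 being higher in Huh7 (39.2% of all genes) and 28 lower (38.7%). NDUFB11, an X-linked accessory subunit of the membrane arm, lay at 5.80, 5.96 and 5.88 in Huh1 and at 4.25, 4.25 and 4.27 in Huh7, a difference of -1.63 ± 0.08 (limma adjusted p = 8.04e-11). NDUFA13, NDUFV1, NDUFS8 and NDUFV3 were higher in Huh7 by 1.11, 1.09, 1.07 and 1.05. NDUFV1 and NDUFS8 are core subunits of the peripheral arm. SDHA, SDHC and SDHD were lower in Huh7, by -0.42, -0.51 and -0.62. Slide and line cannot be told apart for these control arrays.

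COX7B2, an isoform known from testis, was detected in Huh1 on all 9 arrays and in Huh7 on none of the 9. The Huh1 control arrays were at -2.46, -1.70 and -1.70 and the Huh7 controls at -7.23, -7.97 and -7.80 (limma adjusted p = 1.15e-09 for the measured difference). With Huh7 values raised to the floor of the dimmest probe above background, the control level was 32-fold higher in Huh1. With normexp correction the difference, Huh7 minus Huh1, was -2.40 on the log2 scale. Neither drug changed COX7B2 past the threshold. COX6A2, the muscle form of subunit 6A, was above background on all arrays at low signal. COX6B2, a testis form, fell after 5-FU by 0.69 and 0.77 on its bright probe (mean log2 level 3.43). A dim probe of the same transcript (mean level -4.79) changed by 0.08 and 0.24 and was not called. COX4I2 was above background on 3 of 3 Huh7 arrays with 5-FU and on 0 of 3 controls. Against that floor its level was 2.16-fold higher, but with normexp correction the change was -0.10, in the other direction. COX8C was above background on 1 of 3 DSF arrays in each line and on no other array.

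Several probes were tested for 13 members, and they disagreed in direction between calls in few. For NDUFC2 after 5-FU the brightest probe, of transcript NM_001204054, gave -0.23 in Huh1 and 0.30 in Huh7, and the probe of NM_004549 gave 1.08 and 2.27 (limma adjusted p = 8.81e-08 and 4.65e-11). The dimmest of 3 probes of UQCR10 gave 0.30 and 1.39 where the brightest gave -0.16 and 0.11. For UQCRB in Huh7 the probe of NM_006294 gave -0.29 and the dim probe of NM_001199975 gave 1.06. Calls of opposite direction after 5-FU thus stood within NDUFC2 and UQCR10 in Huh1 and within UQCRB in Huh7.

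Genes around the subunits were counted from lists. All 18 genes of the ATP synthase list (complex V) were tested. With DSF, 14 were below control past the threshold and 0 above in Huh1, whereas Huh7 had 5 below and 1 above. Of all genes, 26.3% were lower and 26.3% higher with DSF in Huh1, and 24.1% lower and 29.2% higher in Huh7. With spike-in scaling 2 of the ATP synthase genes were below control in Huh1 and 5 in Huh7 with DSF, and 0 above. After 5-FU 16 and 14 were lower and 0 higher, with medians of -0.46 and -0.40, where 29.1% and 31% of all genes were lower. As for the subunits, this depended on the scaling: with quantile normalization 9 were lower and 2 higher in Huh1 and 5 and 5 in Huh7, and with spike-in scaling 1 and 12 in Huh1 and 0 and 16 in Huh7. Of 14 regulators of respiratory chain genes, DSF-treated Huh7 cells had 11 above and 2 below control past the threshold, with a median of 0.34, where 29.2% of all genes were higher and 24.1% lower, and Huh1 cells had 3 above and 4 below. With the slide as a fixed block the regulators' median was 0.39 in Huh7. That fit rests on the single Huh7 DSF array on the slide of the controls. With spike-in scaling 1 regulator was above and 2 below in Huh7. TFAM, the mitochondrial transcription factor, changed by 0.37 ± 0.06 in Huh7 and -0.16 ± 0.06 in Huh1. Of 22 genes for complex IV assembly and copper delivery, 12 passed the test as lower and 2 as higher with DSF in Huh1. In Huh7 5 did as lower and 7 as higher, shares near the 24.1% and 29.2% of all genes there. With spike-in scaling 4 were lower and 1 higher in Huh1, and 5 lower and 1 higher in Huh7. COX19, a copper-binding protein of the intermembrane space, changed by 0.79 ± 0.09 in Huh1 and -1.03 ± 0.09 in Huh7 after DSF, and by 0.90 and 0.48 after 5-FU. Of 14 complex I assembly factors, DSF gave 6 lower and 1 higher in Huh1, against 2 lower and 5 higher in Huh7. With spike-in scaling DSF gave 1 lower and 0 higher in Huh1, against 2 and 2 in Huh7. 5-FU gave 7 lower and 3 higher in Huh1, against 9 lower and 2 higher in Huh7. Of all genes, 29.1% and 31% were lower after 5-FU and 25.9% and 32.5% higher. With spike-in scaling 5-FU gave 0 lower and 10 higher in Huh1, against 1 and 11 in Huh7.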

How the data were processed

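The arrays (SurePrint G3 Human GE 8x60K, total RNA labeled with Cy3) were read with Agilent Feature Extraction 10.7.1.1 per the labels. Per the file headers, the deposited spot files give the processed signal, a linear intensity after background subtraction and detrending by the authors' software. The authors also deposited a GeneSpring table of normalized intensity. On each array it lay within 0.05 log2 of a constant from the spot files for 100% of 42327 probes, and it served as an alternative. The number of arrays limits precision.

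Here, log2 intensity was averaged over unflagged spots of a probe, and the 75th percentile of each array was subtracted. All 18 arrays and 6 groups entered 1 limma 3.58.1 fit (R 4.3.3), with 9 contrasts and Benjamini-Hochberg adjustment over 29905 probes, each flagged well above background on every array of 1 or more groups. The procedure was tested on simulated data. Through RefSeq accessions 25771 of 27134 probes with such an accession were named. The brightest probe stood for each gene. Counts over all genes use the 15855 genes so represented. Probes cannot separate near-identical copies. NDUFA4 and NDUFA4L2 carry other symbols in RefSeq and fell outside the rule.

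Named genes were those called in both lines, the 5 largest rises and falls per drug and line, the 5 largest differences between lines, complex II, the isoform pairs, and the 5 largest differences of control cells. The NDUFC2, UQCR10 and UQCRB probes and the genes of the lists were named since they disagreed or for their role. Members, lists and tests were chosen with earlier results of these data known.

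Alternatives were quantile, median and spike-in scaling, normexp background (offset 50, on the median foreground and background signals, since the mean signal was not used here), probe filters, means of probes, other groupings of arrays in the fit, slide and replicate blocks, robust and trended moderation, and leaving out each array; within-slide comparisons, and other scalings for the surrounding gene lists, were added after seeing the data. A member gene is counted but not reported by name here.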

Additional observations from a re-analysis of the deposited data

Results flagged for a closer look

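Effects of a drug that differed between the lines, by the test of the difference itself in the limma fit, are given as the log2 change in Huh7 minus that in Huh1 for the named genes. For DSF, the difference was below 0 for COX7A1 (-2.84), COX7A2L (-0.54), COX8A (-0.32) and NDUFS4 (-0.30). It was above 0 for NDUFB4 (0.21), SDHD (0.22), NDUFV2 (0.25), UQCRFS1 (0.25), NDUFB5 (0.31), NDUFA12 (0.33), NDUFB6 (0.38), UQCR10 (0.41), SDHC (0.42), NDUFB9 (0.46), COX5A (0.48), NDUFS6 (0.48), NDUFAB1 (0.53), NDUFA6 (0.61) and NDUFC2 (0.64). For 5-FU, the difference was below 0 for COX7A2L (-0.55), NDUFV1 (-0.51), NDUFA10 (-0.50) and NDUFA7 (-0.33). It was above 0 for SDHC (0.24), SDHD (0.26), UQCR10 (0.26), UQCRC1 (0.33), NDUFB11 (0.36), NDUFA6 (0.41), NDUFA12 (0.43), NDUFS3 (0.44), NDUFB9 (0.48), COX5A (0.49), NDUFC2 (0.54) and NDUFB10 (0.61). The COX7A1 difference rests on values below background in 3 of its 4 groups. All Huh7 DSF arrays but the first lay on a slide of their own, and the single DSF array on the slide of the Huh7 controls stood from them by -0.09 for COX7A2L, 0.25 for NDUFA6 and 0.40 for NDUFB9. With spike-in scaling 5 members were called for DSF and 7 for 5-FU. Groups of 3 arrays are too small for a test of outlying samples.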

How the results depend on the processing

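Counts are members called higher and lower, and medians are log2 changes. Quantile normalization gave 3 and 30 for DSF in Huh7 (median -0.163; complex II -0.0961), 11 and 20 for 5-FU in Huh1 (-0.0346; complex I 9e-04, complex IV 4e-04, NDUFC2 0.0861), 26 and 21 for 5-FU in Huh7 (0.0941; complex I 0.0874, complex III 0.1469, complex IV 0.1699), and for DSF against 5-FU 10 and 22 in Huh1, 15 and 36 in Huh7. Median scaling gave 1 and 53 for DSF in Huh1 (-0.378, with all probes at -0.17), 0 higher for 5-FU in Huh1, and 8 and 15 for DSF against 5-FU in Huh1.

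Spike-in scaling gave 4 lower for DSF in Huh1 (-0.0724) and 0 higher for DSF in Huh7 (-0.2476; complex II -0.1696, NDUFS6 -0.0043). For 5-FU in Huh1 it gave 52 and 0 (0.5923; complexes I to IV 0.6295, 0.4438, 0.5235 and 0.6021), with COX6B2 at 0.1312, NDUFA1 0.13, NDUFA10 0.0364, NDUFA7 0.1478, NDUFB10 0.5421, NDUFC2 0.5907 and NDUFS7 0.1649. For 5-FU in Huh7 it gave 58 and 0 (0.8196; complexes I to IV 0.8286, 0.6611, 0.8007 and 0.8562), with COX6B2 at 0.2149, COX7A2L 0.1615 and NDUFS7 0.1334. DSF against 5-FU had 1 and 55 in Huh1 and 0 and 62 in Huh7, and the differences between lines 5 (DSF) and 7 (5-FU).

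With normexp correction COX4I2 in Huh7 changed by -0.0562 (DSF) and -0.1029 (5-FU), and 12 were lower for DSF against 5-FU in Huh1; moderation with a trend gave 11 there. Without a filter 1 was higher for 5-FU in Huh1, and with only probes above background on all 18 arrays 1 was higher for DSF in Huh1. The slide as a fixed block gave 4 and 4 for DSF in Huh7 and 9 lower for DSF against 5-FU in Huh7; within slides the values were 3 and 1, and 6 lower. For DSF in Huh7 both the slide block and the within-slide fit rest on a single DSF array. Fits of only the groups compared gave 1 higher for 5-FU in Huh1 and 9 lower for DSF against 5-FU in Huh7. Means of probes gave complex II -0.1118 for DSF in Huh7 and NDUFC2 0.4244 for 5-FU in Huh1, and the literal prefixes gave 11 higher for DSF in Huh7 and 5 for 5-FU in Huh1. The slide as a random block and the deposited normalized table turned no direction and ended no call, and moved no count beyond the limit used for a shift. The cause of the other shifts was not tested.

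Replicate numbers did not pair the samples: deviations of same-numbered samples correlated at -0.0934 to 0.0245 over 18 pairs. With the replicate block 1 member was higher for 5-FU in Huh1.

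Leaving out each array gave 23 to 30 lower for DSF in Huh1 (23 without control array 2), 0 to 2 higher for 5-FU in Huh1, and 4 to 7 higher for DSF in Huh7 (4 without control array 2).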

Other observations

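COXFA4, the current symbol of NDUFA4, is a subunit of complex IV whose gene lay outside the symbol rule. It changed by -0.15 ± 0.07 and -0.06 ± 0.07 after DSF in Huh1 and Huh7 and fell after 5-FU by 0.29 and 0.25 (limma adjusted p = 0.00303 and 0.00646).

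COXFA4L2, formerly NDUFA4L2, was dim. The Huh1 control arrays were at -6.51, -5.53 and -6.33, none above background, and the DSF arrays at -3.46, -4.68 and -4.94, all above it (limma adjusted p = 0.03). The Huh7 control arrays were at -3.93, -4.38 and -1.30, with the third far above the others, and the DSF arrays at -5.01, -5.34 and -5.00 (limma adjusted p = 0.0194). With 5-FU in Huh7 1 of 3 arrays was above background, at -6.59, -5.87 and -6.30.

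Cytochrome c itself (CYCS) rose in Huh7 by 0.54 ± 0.08 after DSF and 0.43 ± 0.08 after 5-FU, and changed by 0.08 and -0.04 in Huh1. Of the 7 electron carrier genes listed outside the prefixes, no other was called higher against control. DSF gave 0 higher and 5 lower in Huh1 (26.3% and 26.3% of all genes), and 1 and 2 in Huh7 (29.2% and 24.1%). 5-FU gave 0 and 5 in Huh1, and 1 and 4 in Huh7. With spike-in scaling DSF gave 0 and 1 in Huh1, and 1 and 2 in Huh7. With that scaling 5-FU gave 5 and 0, and 5 and 1. GABPA, a subunit of an ETS factor, changed by -0.40 in Huh7 and 0.01 in Huh1 after DSF and fell after 5-FU by 0.33 in Huh1 and 0.51 in Huh7. PPARGC1A, a coactivator of mitochondrial genes, rose after 5-FU by 1.24 ± 0.25 in Huh1 and 0.71 ± 0.25 in Huh7.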
